A study of Mus musculus with 48 samples.

Results

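Olfactory receptor genes were the 1125 genes whose symbol began with Olfr and a number, out of 24466 gene symbols with an H3K27me3 value. They made up 4.60% of the table, and the choice used the symbol only and no measured value. H3K27me3 had been profiled by chromatin immunoprecipitation sequencing (ChIP-seq) in 3 mouse cell types. Each was represented by 2 libraries of immunoprecipitated DNA and 2 of input, so that 12 of the 48 libraries of the series bear on these genes. Hepatocytes came from adults of 8 weeks, and the sources used here do not give their isolation, sex or strain. Beta cells were sorted at 8 weeks by the red fluorescence of an insulin reporter (Ins-RFP), which marks cells by the activity of an insulin promoter. Definitive endoderm was sorted from e8.25 embryos with the ENDM1 antibody, which binds the surface of endoderm cells. The protocol names superovulated B6C3F1 females crossed with C3H, Pdx1-eGFP or Ins-RFP males, and does not say which cross gave which library. No library of the 3 groups was described as treated, mutated or deleted.

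Olfactory receptors are G protein-coupled receptors that sense odorants, and in mice they form the largest gene family. Most lie in clusters of many neighbouring copies, and the coding part of a receptor gene is typically a single exon. An olfactory sensory neuron uses 1 receptor gene from 1 allele, and the other receptor genes of that neuron are packed into heterochromatin with H3K9me3 and H4K20me3. H3K27me3 is a different repressive mark, written by Polycomb repressive complex 2 (PRC2), which is best known at CpG-rich promoters of developmental regulators. None of the cell types profiled here is an olfactory neuron.

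The table held 1 value per gene and cell type, a ratio of H3K27me3 to input that the authors had quantile-normalized, which gives every cell type the same set of values over all genes. A ratio is therefore a gene's standing within 1 cell type, and the total amount of H3K27me3 cannot be compared. The columns are pooled, carry no replicate spread and give no read depth. No test was possible, each difference below compares 1 pooled profile with another, and no difference could be set against an error. In sorted populations, a mark in fewer cells and less mark per cell cannot be told apart. At marker genes, the 6 hepatocyte markers stood between the 3.22 and 25.9 percentile in hepatocytes, with Cebpa at a ratio of 0.131 in hepatocytes, 3.76 in beta cells and 11.3 in endoderm. The 7 beta cell markers spanned the 3.25 to 82.1 percentile in beta cells, Pdx1 having a ratio of 7.18 in hepatocytes, 0.217 in beta cells and 6.39 in endoderm. Some markers did not follow these examples. Ins1 had 1.38 in hepatocytes, 1.56 in beta cells and 0.0471 in endoderm, and Alb had 0.400, 0.920 and 0.374 in that order. By the log2 threshold of 1 used below, 4 of the 6 hepatocyte markers were lower and 0 higher in hepatocytes than in endoderm. Of the 7 beta cell markers, 4 were lower and 1 higher in beta cells than in endoderm. The 6 endoderm markers were not low in the endoderm column, where they spanned the 67.2 to 99.7 percentile, so this repressive mark does not check that label. Blood and endothelial markers spanned the 58.6 to 89.0 percentile in hepatocytes, 20.6 to 89.7 in beta cells and 12.9 to 88.6 in endoderm. Their part in the results was not tested.

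The DNA around the annotated starts of the receptors differs from the CpG-rich promoters at which PRC2 is best known, and 5 receptors show this. Each window runs from 250 bases before to 50 bases after the start that RefSeq annotates on GRCm38.p6, is written 5′ to 3′ along the gene's strand, and has its CpG dinucleotides in capitals. For a receptor model without an upstream exon this start is near the start codon, and how many models are of that kind was not examined. Olfr1449 (chr19:12934490-12934789, plus strand) had the highest mean H3K27me3 rank of all receptors over the 3 cell types, and Olfr917 (chr9:38665793-38666092, minus strand) had the lowest. Olfr109 (chr17:37465958-37466257, plus strand) and Olfr15 (chr16:3838725-3839024, plus strand) are receptors with described roles in pancreatic beta cells. Olfr1324 (chrX:50426445-50426744, minus strand) is one of 3 X-linked receptors among the 5 with the highest hepatocyte value relative to beta cells.
Olfr1449: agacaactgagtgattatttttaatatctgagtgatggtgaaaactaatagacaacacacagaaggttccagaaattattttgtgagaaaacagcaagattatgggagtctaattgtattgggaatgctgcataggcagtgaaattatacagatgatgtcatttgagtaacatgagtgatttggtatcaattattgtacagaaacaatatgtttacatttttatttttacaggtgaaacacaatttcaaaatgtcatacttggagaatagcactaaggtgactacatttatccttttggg
Olfr917: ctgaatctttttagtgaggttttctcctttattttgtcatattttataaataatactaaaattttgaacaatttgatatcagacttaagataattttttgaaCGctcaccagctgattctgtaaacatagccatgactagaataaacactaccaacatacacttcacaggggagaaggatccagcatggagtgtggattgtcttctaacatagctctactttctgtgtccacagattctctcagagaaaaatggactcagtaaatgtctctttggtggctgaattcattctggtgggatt
Olfr109: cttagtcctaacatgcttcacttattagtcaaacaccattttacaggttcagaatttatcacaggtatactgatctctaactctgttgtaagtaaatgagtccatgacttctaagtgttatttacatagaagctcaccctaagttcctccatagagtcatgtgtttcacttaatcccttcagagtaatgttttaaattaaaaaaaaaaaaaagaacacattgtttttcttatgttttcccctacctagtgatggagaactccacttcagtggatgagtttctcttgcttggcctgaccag
Olfr15: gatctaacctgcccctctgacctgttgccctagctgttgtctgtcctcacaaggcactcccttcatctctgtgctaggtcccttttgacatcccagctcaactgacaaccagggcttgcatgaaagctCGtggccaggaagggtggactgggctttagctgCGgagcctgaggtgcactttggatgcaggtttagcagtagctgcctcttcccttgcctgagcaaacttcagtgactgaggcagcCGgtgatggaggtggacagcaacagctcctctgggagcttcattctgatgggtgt
Olfr1324: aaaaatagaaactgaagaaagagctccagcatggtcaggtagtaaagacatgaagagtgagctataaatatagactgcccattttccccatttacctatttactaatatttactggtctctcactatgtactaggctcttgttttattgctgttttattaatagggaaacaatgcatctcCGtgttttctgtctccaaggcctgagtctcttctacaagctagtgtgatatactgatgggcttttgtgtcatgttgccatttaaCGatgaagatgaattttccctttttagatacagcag
The windows hold 0 CpG for Olfr1449, 1 for Olfr917, 0 for Olfr109, 3 for Olfr15 and 2 for Olfr1324. The receptor with the highest mean rank and the one with the lowest thus both have windows nearly free of CpG.

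Receptor genes stood above the middle of all genes in both adult cell types and below it in endoderm. Their median ratio was 1.10 in hepatocytes, 1.22 in beta cells and 0.471 in endoderm, where the median of all genes was 0.711 in each column by construction. As ranks among all genes, these medians lay at the 69.0 percentile in hepatocytes, 73.3 in beta cells and 26.7 in endoderm. The highest of the 3 values of a receptor was in hepatocytes for 38.0%, in beta cells for 44.3% and in endoderm for 17.7% of receptors. The lowest was in hepatocytes for 16.8%, in beta cells for 24.4% and in endoderm for 58.8%. Among all other genes the lowest value was spread almost evenly, with 34.8% in hepatocytes, 32.7% in beta cells and 32.5% in endoderm.

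The medians hide different shapes. In hepatocytes the receptors formed a single group of moderate values, with 56.0% of them between the 25 and 75 percentile, 2.93% in the lowest 10% of all genes and 9.78% in the highest 10%. In beta cells they stood at both ends, with 26.3% between those percentiles, 17.1% in the lowest 10% and 25.6% in the highest. In endoderm 24.7% were between those percentiles, 34.7% in the lowest 10% and 12.9% in the highest. Accordingly, the standard deviation of log2(ratio + 0.0711) over receptors was 0.80 in hepatocytes, 1.48 in beta cells and 1.38 in endoderm, set beside 1.23 over all genes in each column. The constant 0.0711 is the median ratio divided by 10, added so that low ratios do not dominate, and it shrinks differences between low values. Receptors were 17.2% of the 1223 genes in the lowest 5% of endoderm, 9.65% of those of beta cells and 1.23% of those of hepatocytes.

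**Figure D1:**
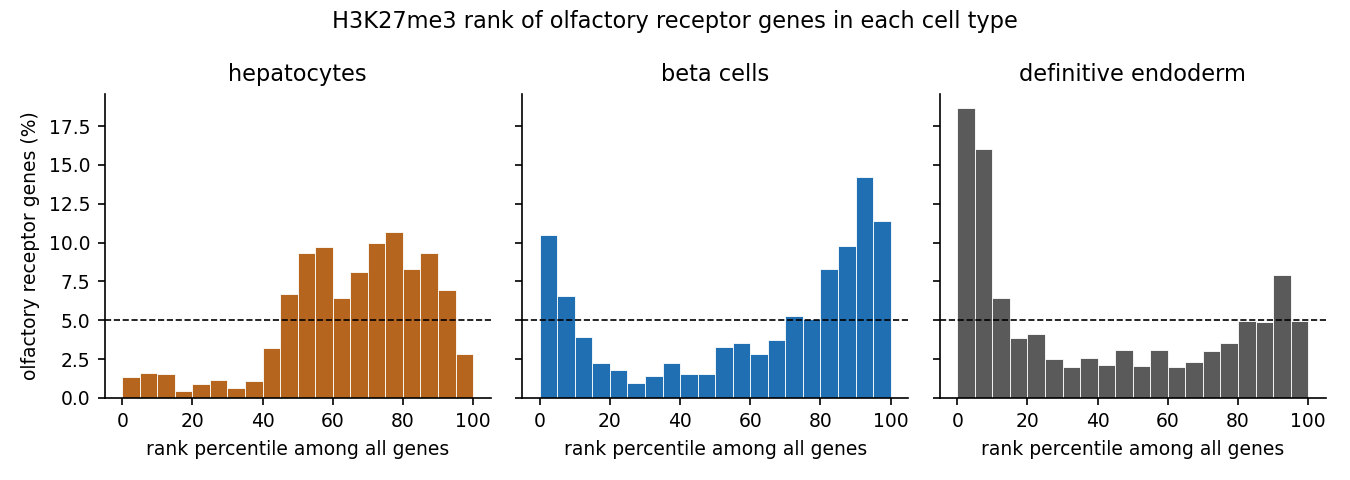
Histograms of the rank percentile (x axis, 0 to 100 among all genes) of the 1125 receptor genes in each cell type, with the percent of receptor genes on the y axis and the dashed line at the 5% that an even spread would give each bar. Hepatocyte values gather around their median of 69.0, beta cell values stand at both ends, and 34.7% of receptors are in the lowest 10% of genes in endoderm.

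A ratio of 4 or more was reached by 16 receptors (1.42%) in hepatocytes, 77 (6.84%) in beta cells and 15 (1.33%) in endoderm, where 3.4% of all genes reached it in each column. High ratios were thus less frequent among receptors than among all genes in hepatocytes and endoderm, and more frequent in beta cells. For comparison, the 42 gene symbols beginning with Hox and a cluster letter had a median ratio of 6.19 in hepatocytes, 5.87 in beta cells and 8.03 in endoderm. Hox genes pattern the body axis and are classical PRC2 targets. The highest receptor values were in beta cells. Olfr792 had a ratio of 1.23 in hepatocytes, 44.4 in beta cells and 0.233 in endoderm. Olfr243 had 1.17 in hepatocytes, 42.9 in beta cells and 1.54 in endoderm, and Olfr725 had 0.903, 35.7 and 0.975 in the same order. In each of these 3 the beta cell value stood far above the other two. In hepatocytes the highest was Olfr1449, with 12.5 in hepatocytes, 4.66 in beta cells and 4.00 in endoderm, followed by Olfr141 with 7.44, 0.733 and 0.429 in that order. In endoderm the highest was Olfr172, with 1.03 in hepatocytes, 0.0970 in beta cells and 6.31 in endoderm.

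Ranks in 1 cell type said little about ranks in another. The 5 with the highest mean rank were Olfr1449, Olfr94, Olfr222, Olfr95 and Olfr685, whose mean percentiles were between 96.4 and 97.8. Olfr222, for example, had a ratio of 3.95 in hepatocytes, 5.92 in beta cells and 3.66 in endoderm. The 5 with the lowest mean rank were Olfr917, Olfr1161, Olfr1204, Olfr1040 and Olfr936, between the 2.33 and 4.86 percentile. Olfr917 had 0.0247 in hepatocytes, 0.0231 in beta cells and 0.121 in endoderm, low in each. Across receptors the Spearman coefficient between hepatocytes and beta cells was 0.225, against 0.503 across the other 23341 genes. Between hepatocytes and endoderm it was 0.169 across receptors and 0.497 across other genes, and between beta cells and endoderm 0.122 and 0.383. Genes of a column share libraries and normalization and are not independent, so these coefficients only describe the profiles.

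Hepatocytes compared with definitive endoderm address how the mark stands at these genes in an adult liver cell and in the embryonic layer that gives rise to it. Genes were called higher or lower from a log2 difference of 1 upward, which is 2-fold in ratio + 0.0711. In hepatocytes 563 receptors (50.0%) were higher than in endoderm, where 12.8% of all genes were, and 132 (11.7%) were lower, where 13.3% of all genes were. The median log2 difference was 1.00 over receptors and -0.03 over all genes. The quartiles of the receptors were -0.13 and 1.90, and the whole range ran from -4.43 to 5.07. Differences of at least 3 on the log2 scale were reached upward by 73 receptors (6.49%), against 2.00% of all genes, and downward by 8 (0.711%), against 1.60% of all genes.

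The largest differences upward came from receptors near 0 in endoderm. Olfr523 had a ratio of 4.12 in hepatocytes and 0.0535 in endoderm, a log2 difference of 5.07. Olfr33 had 4.27 in hepatocytes and 0.0833 in endoderm, and Olfr435 had 2.47 in hepatocytes and 0.0209 in endoderm. Olfr467 and Olfr554 followed, at 2.21 and 2.01 in hepatocytes against 0.0229 and 0.0171 in endoderm. Downward, Olfr1090 had a ratio of 0.0498 in hepatocytes and 2.54 in endoderm, a log2 difference of -4.43. Olfr1141 had 0.203 in hepatocytes and 5.30 in endoderm, and Olfr1023 had 0.0298 in hepatocytes and 1.50 in endoderm. Olfr16 had 0.152 in hepatocytes and 3.14 in endoderm, and Olfr948 had 0.185 in hepatocytes and 2.36 in endoderm. These 10 were taken as extremes by a rule on size, so their values describe the ends of the distribution.

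In beta cells 527 receptors (46.8%) were higher than in endoderm, where 14.1% of all genes were, and 185 (16.4%) were lower, where 15.1% of all genes were. The median log2 difference was 0.83 over receptors and -0.01 over all genes. The spread was wider than for hepatocytes, with quartiles of -0.45 and 2.14 and a range from -5.25 to 7.19. Differences of at least 3 were reached upward by 141 receptors (12.5%), against 2.43% of all genes, and downward by 36 (3.2%), against 2.03% of all genes. Both adult comparisons use the same endoderm column, so their counts are not independent of each other, and the low endoderm values enter both.

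At the upper end, Olfr792 had a ratio of 44.4 in beta cells and 0.233 in endoderm, a log2 difference of 7.19. Olfr524 had 5.47 in beta cells and 0.0477 in endoderm, and Olfr516 had 12.4 in beta cells and 0.201 in endoderm. Olfr1446 followed with 6.03 in beta cells and 0.0924 in endoderm, and Olfr935 with 9.55 in beta cells and 0.198 in endoderm. At the lower end, Olfr172 had 0.0970 in beta cells and 6.31 in endoderm, a log2 difference of -5.25. Olfr1112 had 0.0227 in beta cells and 3.35 in endoderm, Olfr1211 had 0.0380 in beta cells and 3.33 in endoderm, and Olfr1047 had 0.0215 in beta cells and 2.13 in endoderm. Olfr1321, an X-linked receptor, had 0.0921 in beta cells and 4.76 in endoderm.

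Between the adult cell types the median difference of the receptors was near 0, and over all 1125 both tails held larger shares than over all genes. In hepatocytes 295 receptors (26.2%) were higher than in beta cells, where 13.1% of all genes were, and 258 (22.9%) were lower, where 12.5% of all genes were. The median log2 difference was -0.06 over receptors and -0.04 over all genes, and 572 receptors were within the threshold. The balance of both tails depended on the pseudocount, which sets how much low values count. With a pseudocount of 0.711, 114 receptors (10.1%) were higher and 154 (13.7%) lower in hepatocytes, against 6.21% and 5.06% of all genes. Among the 690 receptors with a mean level above the median of all genes, 97 (14.1%) were higher, against 16.7% of such genes, and 200 (29.0%) were lower, against 13.3%. This cut was made on the same values that are compared, so it cannot show what the balance depends on. Olfr854 was the highest in hepatocytes relative to beta cells, with a ratio of 4.51 in hepatocytes and 0.0503 in beta cells. Olfr560 had 2.08 in hepatocytes and 0.0274 in beta cells, and the other 3 of the upper 5, Olfr1320, Olfr1321 and Olfr1324, are X-linked. At the lower end Olfr1023 had 0.0298 in hepatocytes and 8.83 in beta cells, a log2 difference of -6.46. Olfr725, Olfr243 and Olfr792 followed through their high beta cell values, and Olfr1106 had 0.327 in hepatocytes and 9.30 in beta cells.

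Receptors with described roles outside the nose were of interest because some of those roles are in liver or islets. Of 11 such receptors, 6 had higher values in hepatocytes than in endoderm and 1 a lower value, and 7 had higher values in beta cells than in endoderm and 1 a lower value. The shares with higher values, 54.5% in hepatocytes and 63.6% in beta cells, stand beside 50.0% and 46.8% of all receptors, and nothing particular to these 11 follows from them. Olfr15, a receptor for octanoic acid studied in beta cells, had a ratio of 2.66 in hepatocytes, 2.65 in beta cells and 0.650 in endoderm. Olfr109, described in beta cells as a receptor for an insulin peptide, had 2.69 in hepatocytes, 2.03 in beta cells and 0.124 in endoderm. Both were therefore above the 0.711 median in the very cell type in which they have been studied. Olfr544, a receptor for azelaic acid with roles in liver and alpha cells, had 1.49 in hepatocytes, 2.84 in beta cells and 0.855 in endoderm. Olfr734, the asprosin receptor of hepatocytes, had 1.15 in hepatocytes, 0.844 in beta cells and 1.25 in endoderm, with no difference past the threshold.

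Olfr78 and Olfr558, receptors for short-chain fatty acids in blood vessels and other tissues, had different values in beta cells. Olfr78 had 1.68 in hepatocytes, 0.546 in beta cells and 0.736 in endoderm. Olfr558 had 2.06 in hepatocytes, 1.48 in beta cells and 0.647 in endoderm. Olfr1393, a kidney receptor, had 0.488 in hepatocytes, 1.47 in beta cells and 0.465 in endoderm. Olfr16, a receptor found in sperm and activated by lyral, was the exception in direction, with 0.152 in hepatocytes, 0.338 in beta cells and 3.14 in endoderm. Olfr43 had 1.84 in hepatocytes, 3.15 in beta cells and 0.383 in endoderm, and Olfr691 had 1.27, 1.71 and 0.507 in that order. Olfr2, a receptor for octanal, had 1.48 in hepatocytes, 1.59 in beta cells and 1.99 in endoderm, with all differences within the threshold.

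Among 6 receptors much used as models of receptor choice and axon wiring, 1 (16.7%) was higher and 2 (33.3%) were lower in hepatocytes than in endoderm. These shares stand beside 50.0% and 11.7% of all receptors and 12.8% and 13.3% of all genes. The median log2 difference was -0.69, against 1.00 over all receptors. In beta cells 3 (50%) were higher than in endoderm and none lower, with a median of 0.87. The share higher was near the 46.8% of all receptors, of which 16.4% were lower. Of all genes, 14.1% were higher and 15.1% lower. Relative to beta cells none was higher and 4 (66.7%) were lower in hepatocytes, where 26.2% and 22.9% of all receptors and 13.1% and 12.5% of all genes were. Olfr17 (P2) had a ratio of 0.450 in hepatocytes, 1.81 in beta cells and 1.56 in endoderm. Olfr151 (M71) had 1.17 in hepatocytes, 4.07 in beta cells and 2.61 in endoderm, and Olfr1507 (MOR28) had 0.760, 3.50 and 1.59 in that order. Olfr73 had 0.272 in hepatocytes, 0.742 in beta cells and 0.156 in endoderm. Olfr160 (M72) had 1.41 in hepatocytes, 2.1 in beta cells and 0.608 in endoderm, and Olfr545 had 1.70, 2.15 and 2.25 in that order.

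**Figure D2:**
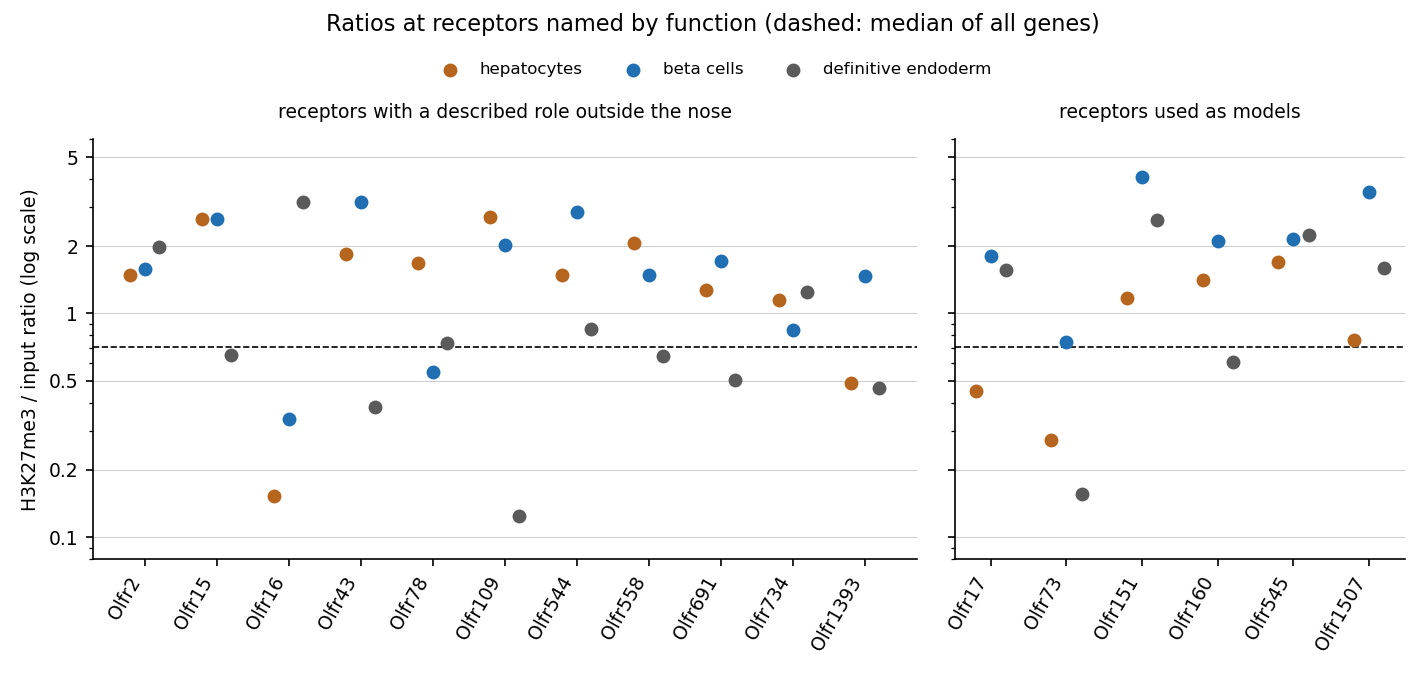
H3K27me3 to input ratio (y axis, log scale) at the 11 receptors with described roles outside the nose and the 6 model receptors, with 1 point per cell type and the dashed line at the median of all genes, 0.711. Olfr15 and Olfr109 lie above the line in hepatocytes and beta cells and below it in endoderm, and Olfr16 lies the other way round.

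Receptor numbers mostly follow the genome, since neighbouring receptors were mostly numbered in sequence. The receptors were therefore described in 16 blocks of 100 symbol numbers. Some low numbers lie elsewhere, so a block such as Olfr1 to Olfr99 can mix places in the genome. In gene order Olfr9 begins a stretch of receptors that ends with Olfr827, and Olfr57 ends one that begins with Olfr1356. In every block the median log2 difference from endoderm was above 0, between 0.35 and 1.57 for hepatocytes and between 0.28 and 1.32 for beta cells. The share of a block higher in hepatocytes than in endoderm ran from 36.5% (27 of 74 in Olfr1 to Olfr99) to 60.5% (52 of 86 in Olfr100 to Olfr199). The share higher in beta cells than in endoderm ran from 34.2% (25 of 73 in Olfr900 to Olfr999) to 60.7% (37 of 61 in Olfr200 to Olfr299). No block had more receptors lower than higher in either adult cell type relative to endoderm.

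The blocks differed more in level than in their differences. The block Olfr1100 to Olfr1199, with 72 receptors, had the lowest median percentile in beta cells and endoderm, at 53.3 in hepatocytes, 37.6 in beta cells and 8.15 in endoderm. Its receptor nearest the block medians, Olfr1173, had a ratio of 0.768 in hepatocytes, 0.556 in beta cells and 0.171 in endoderm. The block Olfr400 to Olfr499, with 70 receptors, stood at 76.2 in hepatocytes, 88.6 in beta cells and 61.9 in endoderm. Its nearest receptor, Olfr433, had 1.11 in hepatocytes, 2.03 in beta cells and 0.967 in endoderm. Blocks from Olfr800 to Olfr1299 were the low stretch, with medians from 52.6 to 62.9 in hepatocytes, 37.6 to 62.8 in beta cells and 8.15 to 20.8 in endoderm. Endoderm medians were also low in Olfr100 to Olfr199, at 11.3, although that block stood at 74.5 in hepatocytes. The last block, Olfr1500 to Olfr1599, had 16 receptors and the highest endoderm median, 70.3.

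**Figure D3:**
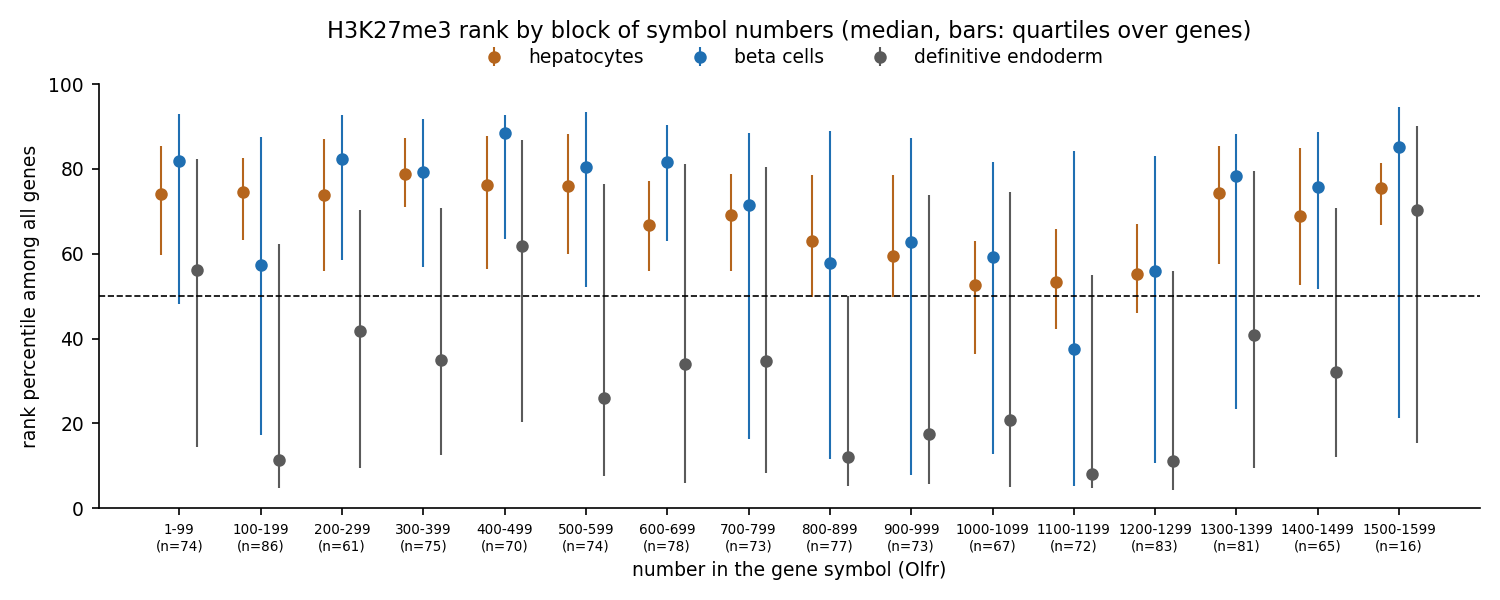
Median rank percentile (y axis, with bars for the quartiles over genes) of the receptors in each block of 100 symbol numbers (x axis) in hepatocytes, beta cells and endoderm. Endoderm lies below both adult cell types in every block, and its medians run from 8.15 to 70.3.

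Blocks of 100 numbers accounted for 15.8% of the variance of the log2 level over receptors in hepatocytes, 6.97% in beta cells and 3.95% in endoderm. For the log2 differences the shares were 2.98% for hepatocytes minus endoderm, 1.60% for beta cells minus endoderm and 2.34% for hepatocytes minus beta cells. Most of the variation thus lay between receptors of 1 block. In hepatocytes, where blocks counted for most, the quartiles within the block Olfr300 to Olfr399 were the 70.9 and 87.2 percentile. In endoderm the same block ran from 12.4 to 70.9.

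**Figure D4:**
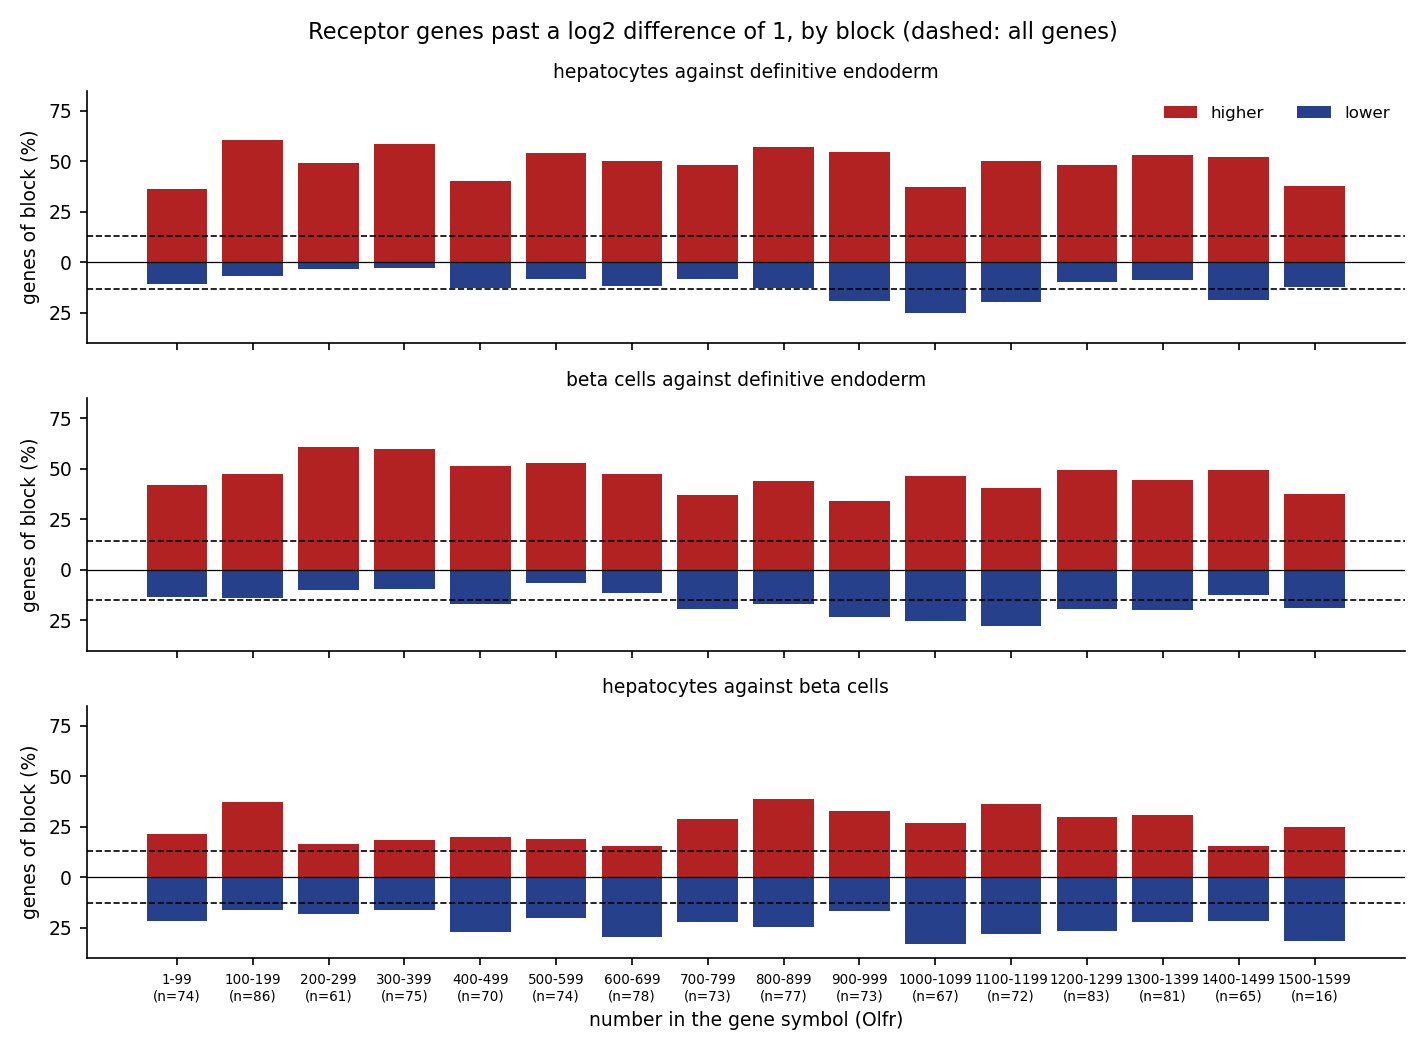
Percent of receptors in each block of 100 symbol numbers (x axis) that were higher (above 0) or lower (below 0) by 1 or more on the log2 scale, in 3 panels for hepatocytes minus endoderm, beta cells minus endoderm and hepatocytes minus beta cells. The dashed lines mark all genes, and the share higher than endoderm is above its line in every block, between 36.5% and 60.5% for hepatocytes.

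Placed in the gene order of RefSeq on GRCm38.p6, 1117 receptors formed 106 runs without another gene of the table between them. The longest held 122 receptors, from Olfr153 to Olfr1273-ps, and 25 runs held a single receptor. All 29 runs of 10 or more receptors, 852 receptors together, had a median above 0 in hepatocytes minus endoderm (0.34 to 1.69) and in beta cells minus endoderm (0.10 to 1.93). In hepatocytes minus beta cells 18 of the 29 had a median above 0 and 11 below. The run from Olfr1275 to Olfr1318, with 37 receptors, had the lowest endoderm median among these 29, at the 7.30 percentile, with 53.6 in hepatocytes and 37.5 in beta cells. The run from Olfr453 to Olfr237-ps1, with 11 receptors, had the highest endoderm median, at 84.0, with 83.6 in hepatocytes and 83.9 in beta cells.

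Within runs, next neighbours were weakly alike outside hepatocytes. Over 1011 pairs of adjacent receptors the Spearman coefficient of their ratios was 0.346 in hepatocytes, 0.106 in beta cells and 0.0847 in endoderm. Over 23084 other adjacent pairs of genes it was 0.384 in hepatocytes, 0.227 in beta cells and 0.202 in endoderm. The median absolute log2 difference between adjacent receptors was 0.53 in hepatocytes, 1.28 in beta cells and 1.19 in endoderm, and between other adjacent genes 0.65, 0.76 and 0.75 in that order. In beta cells and endoderm a receptor thus commonly differed from the next one by more than the 2-fold threshold.

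The genes bordering the runs differed less from endoderm. The 179 flanking genes had median percentiles of 62.2 in hepatocytes, 66.0 in beta cells and 55.3 in endoderm. In hepatocytes 26 of them (14.5%) were higher and 19 (10.6%) lower than in endoderm, against 12.8% and 13.3% of all genes. Their median log2 difference was 0.05. In beta cells 35 (19.6%) were higher and 23 (12.8%) lower than in endoderm, against 14.1% and 15.1% of all genes, with a median of 0.23.

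RefSeq's older receptor names sort 1098 receptors into numbered MOR families, in which families numbered under 100 are class I, the fish-like receptors, and the others class II, the tetrapod receptors. This split replaces one by protein identity, which was not run, and was chosen after the values were seen. The 125 class I receptors had median percentiles of 71.2 in hepatocytes, 80.5 in beta cells and 27.3 in endoderm, and the 973 class II receptors 68.6, 72.2 and 27.1 in that order. Relative to endoderm, 68 class I receptors (54.4%) were higher and 8 (6.4%) lower in hepatocytes, with a median of 1.20. In beta cells 65 of them (52%) were higher and 13 (10.4%) lower, with a median of 1.11. Of class II, 481 were higher and 119 lower in hepatocytes, with a median of 0.98, and 448 were higher and 169 lower in beta cells, with a median of 0.80. Both classes showed the same direction in the median.

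Receptors were poor in GC and CpG around their annotated starts. For 939 receptors with a RefSeq window, the median GC content was 35.0%, against 57.0% for other genes, and the median number of CpG was 1, against 14. No CpG at all was found in 316 of the windows (33.7%), against 3.13% of those of other genes. The letters TATAAA, searched on both strands as a TATA box, were found in 41.2% of receptor windows and 13.0% of all windows. TAATTA, the core bound by homeodomain factors such as Lhx2, was found in 174 of 939 receptor windows (18.53%) and 4.57% of all, and TCCC followed after any 2 bases by GGGA, the core bound by the Ebf factors, in 0.532% and 0.974%. These matches describe letters and not bound sites. Both TATAAA and TAATTA consist of A and T only, and the receptor windows were poorer in GC than those of other genes. Whether the receptor shares differ from what this base composition gives was not tested. Of the windows printed above, those of Olfr917 and Olfr1324 contain TATAAA.

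Among receptors, a higher GC content went with a higher rank. The Spearman coefficient of ratio with GC content over the 939 receptors was 0.265 in hepatocytes, 0.192 in beta cells and 0.212 in endoderm, as a description across genes that share libraries. Over other genes it was -0.227 in hepatocytes, -0.213 in beta cells and -0.0588 in endoderm. With the number of CpG the coefficient over receptors was only 0.077 in hepatocytes, 0.037 in beta cells and 0.062 in endoderm. Over other genes the CpG coefficient was -0.338, -0.335 and -0.176 in that order. In windows of 25 to 30% GC, 118 receptors had median percentiles of 58.6 in hepatocytes, 54.8 in beta cells and 8.77 in endoderm, and 39 other genes had 61.8, 57.2 and 23.6. In windows of 45 to 50% GC, 61 receptors stood at 83.4 in hepatocytes, 83.8 in beta cells and 55.3 in endoderm, and 2196 other genes at 61.3, 62.9 and 54.8. Among the 25% of the 18168 genes with a window whose GC content was lowest, 890 receptors had a median log2 difference of 1.05 in hepatocytes minus endoderm and 0.84 in beta cells minus endoderm. The 3672 other genes of that 25% had 0.16 and 0.14 in those comparisons. That 25% reached up to 48% GC, and GC content was not matched within it. In windows of 25 to 30% GC these medians were 1.20 and 0.85 over 118 receptors and 0.52 and 0.29 over 39 other genes. In windows of 30 to 35% GC they were 1.21 and 0.73 over 321 receptors and 0.14 and 0.06 over 192 other genes. Whether base composition affected the sequencing of these libraries was not tested.

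**Figure D5:**
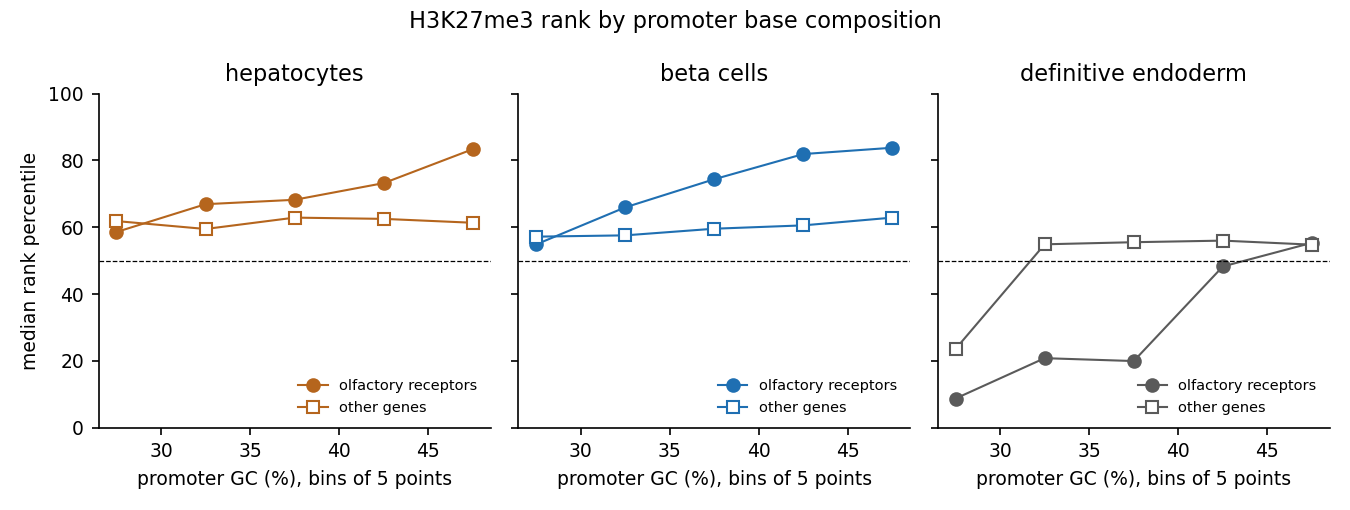
Median rank percentile (y axis) of receptor genes and of other genes in bins of 5 points of promoter GC content (x axis), in a panel per cell type, with the dashed line at 50. Receptors of 45 to 50% GC rank above those of 25 to 30% GC in each panel, and in endoderm the medians of these bins are 55.3 and 8.77.

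X-linked receptors were mostly low in beta cells. Of 6 receptors on the X chromosome, Olfr1320 to Olfr1325, 5 (83.3%) had lower values in beta cells than in endoderm, against 15.1% of all genes. In hepatocytes 5 (83.3%) had higher values than in beta cells, against 13.1% of all genes. Olfr1320 had a ratio of 2.96 in hepatocytes, 0.0641 in beta cells and 1.08 in endoderm. Olfr1321 had 3.33 in hepatocytes, 0.0921 in beta cells and 4.76 in endoderm, and Olfr1324 had 5.60, 0.210 and 3.23 in that order. Olfr1323 had 1.56 in hepatocytes, 0.122 in beta cells and 2.37 in endoderm, and Olfr1325 had 0.951, 0.0830 and 0.311. Olfr1322 was the exception, with 1.02 in hepatocytes, 1.59 in beta cells and 0.680 in endoderm. The median log2 difference of the 6 was -3.32 in beta cells minus endoderm and 3.71 in hepatocytes minus beta cells. The 800 other X-linked genes differed in the same directions in these columns, with medians of -1.12 in beta cells minus endoderm (19 higher, 436 lower) and 1.37 in hepatocytes minus beta cells (542 higher, 2 lower). The part of the whole chromosome in the values of the 6 receptors was not tested.

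Genes that carry the odorant signal or set up receptor choice were also examined, and whether they differ from the receptors or from all genes was not tested. Of 18 signalling and transport genes, 1 (5.56%) was higher and none lower in hepatocytes than in endoderm, where 12.8% and 13.3% of all genes were, and the median log2 difference was 0.11. It was Gng13, a G protein gamma subunit, with a ratio of 3.71 in hepatocytes, 2.04 in beta cells and 0.900 in endoderm. In beta cells 2 (11.1%) were higher than in endoderm, near the 14.1% of all genes, and the median was 0.23. They were Gng13 and Stoml3, a stomatin-like protein of olfactory cilia with 1.45 in beta cells and 0.551 in endoderm. Only Cnga2 (5.56%, against 15.1% of all genes) was lower, with 1.06 in beta cells and 2.52 in endoderm. It is the X-linked subunit of the cilia's cyclic nucleotide-gated channel. Relative to beta cells, 3 of the 18 (16.7%) were lower in hepatocytes, against 12.5% of all genes. These were Cnga4, a second channel subunit, with 1.06 in hepatocytes and 2.64 in beta cells, Rtp2, which helps receptors reach the cell surface, with 1.06 and 2.50, and the ion exchanger Slc24a4 with 1.03 and 2.68.

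Of 14 regulators and wiring genes, 1 (7.14%) was lower in hepatocytes than in endoderm, against 13.3% of all genes. It was Kdm1a, the histone demethylase LSD1, with 0.257 in hepatocytes and 0.666 in endoderm. For beta cells relative to endoderm, 1 (7.14%) was higher and 1 (7.14%) lower, against 14.1% and 15.1% of all genes. In beta cells Ldb1, the cofactor of Lhx2, was higher, with 1.21 in beta cells and 0.520 in endoderm. Kirrel2, an adhesion protein sorted with receptor identity, was lower, with 0.501 in beta cells and 4.62 in endoderm. Between the adult cell types 1 (7.14%) was higher and 2 (14.3%) were lower in hepatocytes, against 13.1% and 12.5% of all genes. Kirrel2 was higher in hepatocytes, with 2.30 against 0.501 in beta cells. Ldb1 and Kdm1a were lower in hepatocytes than in beta cells, Ldb1 with 0.386 in hepatocytes and 1.21 in beta cells and Kdm1a with 0.257 and 0.635. Lhx2 and Emx2, homeodomain factors needed for receptor expression, were picked after their values were seen and were high in every column. Lhx2 had 4.34 in hepatocytes, 4.48 in beta cells and 5.28 in endoderm, and Emx2 had 5.42, 7.12 and 6.91 in that order.

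Other clustered families showed how far the receptors' pattern was shared. Of 337 vomeronasal receptors, which detect pheromones, 134 (39.8%) had higher and 22 (6.53%) lower values in hepatocytes than in endoderm. In beta cells 98 (29.1%) had higher and 68 (20.2%) lower values than in endoderm. These receptors join families that differed. The 211 Vmn1r genes had median percentiles of 69.1 in hepatocytes, 51.2 in beta cells and 23.1 in endoderm. The 126 Vmn2r genes had 59.5, 59.4 and 65.6 in that order, so that their median rank was highest in endoderm. Of 38 taste receptors, 22 (57.9%) were higher and 5 (13.2%) lower in hepatocytes, and 19 (50%) were higher and 5 (13.2%) lower in beta cells. Of 54 keratin-associated protein genes, which make hair, 28 (51.9%) were higher and 3 (5.56%) lower in hepatocytes. In beta cells 24 (44.4%) of them were higher and 8 (14.8%) lower. Of 43 beta-defensin genes, 16 (37.2%) were higher and 4 (9.30%) lower in hepatocytes, and 12 (27.9%) were higher and 6 (14.0%) lower in beta cells. Among 15 trace amine receptors, 5 (33.3%) were higher and 1 (6.67%) lower in hepatocytes, and 6 (40%) were higher and 2 (13.3%) lower in beta cells. Of 20 Mrgpr receptors of sensory neurons, 3 (15%) were higher and 2 (10%) lower in hepatocytes, and 2 (10%) were higher and 3 (15%) lower in beta cells. These Mrgpr shares were near those of all genes. Olfactory receptors thus were one of several clustered families with more members higher than lower relative to endoderm, and whether their share differs from those of the other families was not tested.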

How the data were processed

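H3K27me3 was measured by ChIP-seq in hepatocytes, beta cells and definitive endoderm, with 2 ChIP and 2 input libraries each. The deposited values are linear ratios (H3K27me3 over input) to which the authors applied quantile normalization, per the file headers, and linearity was read from the values. Bowtie2 2.1.0, bedtools and build mm9 are named in the submitters' processing notes. The region measured per gene, any constant in the ratio, and how libraries were pooled are not stated in the sources used here, and pooling hides any difference between libraries. The labels do not say that replicates came from separate animals. Of the inputs of beta cells, 2 carry a title with the digits of the mark transposed and were taken as H3K27me3 inputs. Libraries of H3K9me3 were not analysed here.

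The design called for limma on replicate values. As the columns are pooled, log2(ratio + 0.0711), its differences and rank percentiles (average ranks among all 24466 genes) were described instead, with counts past a log2 difference of 1 and no p-value. Depth is unknown, so no interval is given. The members, lists, threshold and rule for named genes were chosen with earlier results of these data known. That rule took, per comparison, the 5 highest and 5 lowest differences among receptors at or above the 75 percentile in at least 1 of both columns, the 5 highest and 5 lowest mean ranks, the 3 highest values per column, the receptor nearest each block's median, the fixed lists of receptors with known roles, and pathway genes past the threshold. Named outside it are Lhx2, Emx2 and the X-linked receptors Olfr1322, Olfr1323 and Olfr1325, picked after their values were seen. RefSeq (GRCm38.p6) matched 1112 receptors by symbol and 6 by synonym, 7 had no match, and it gave gene order, chromosome, MOR names and start windows. Of the symbols, 18 mark pseudogenes. MOR classes, GC bins of 5 points, the shares of the lowest and highest 10% and the X-linked split were chosen after the values were seen. The calculation was checked on simulated data with changes planted only at genes that were not low in endoderm. That check does not cover changes at low endoderm ratios, where many receptors lie. Python 3.11.15, numpy 2.4.6, pandas 2.3.3 and matplotlib 3.10.9 were used.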

Additional observations from a re-analysis of the deposited data

How the results depend on the processing

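No paired analysis was possible because the pooled columns carry no replicate numbers, and leaving out replicates could not be run for the same reason. The class by protein identity was not run. With no replicate spread, a value was taken as moved when it changed by over 1.5 times. No median over receptors, and no named gene's difference past the threshold, changed sign under the alternatives run. With the pseudocount 10 times larger (0.711), low values count less, and fewer receptors and fewer of all genes passed the threshold. In hepatocytes 247 receptors (21.96%) had higher and 69 (6.13%) lower values than in endoderm (median 0.52), against 5.12% and 4.94% of all genes. In beta cells 348 (30.93%) had higher and 104 (9.24%) lower values than in endoderm (median 0.43), against 6.32% and 6.85%. In hepatocytes minus beta cells 114 were higher and 154 lower (median -0.039), against 6.21% and 5.06% of all genes. Among the 690 receptors whose mean level was above the median of all genes, 264 (38.3%) were higher in hepatocytes than in endoderm (median 0.53), against 14.9% of such genes. In beta cells 332 (48.1%) were higher and 105 (15.2%) lower than in endoderm, against 17.4% and 17.8%. In hepatocytes 97 (14.1%) had higher values than in beta cells (median -0.40), against 16.7%. That subset was cut on the same values that are compared, which by itself can move these counts. At a threshold of 1.5, 61 receptors (5.42%) were lower in hepatocytes than in endoderm, against 6.92% of all genes. At that threshold 193 (17.2%) had higher and 144 (12.8%) lower values in hepatocytes than in beta cells, against 7.88% and 6.67%. At 0.5, 217 (19.3%) were lower in hepatocytes than in endoderm, against 26.2% of all genes, and 426 (37.9%) lower in hepatocytes than in beta cells, against 25.7%. Division of the columns by their most frequent values moved the median of all genes to 0.38 in both comparisons with endoderm. It left 69 receptors (6.13%) lower and 669 (59.5%) higher in hepatocytes, against 7.75% and 21.3% of all genes. Receptor medians were then 1.40 in hepatocytes and 1.21 in beta cells. Runs in gene order accounted for 29.9% of the variance of the level in hepatocytes, 17.2% in beta cells and 14.2% in endoderm, and for 10.7%, 10.9% and 10.9% of that of hepatocytes minus endoderm, beta cells minus endoderm and hepatocytes minus beta cells. Runs are far more numerous than blocks, which raises such a share by construction. Blocks of 50 numbers gave 4.08% for beta cells minus endoderm and 4.55% for hepatocytes minus beta cells. Other counts and medians under the alternatives run stayed within 1.5 times. Receptors that share near-identical sequence with a neighbour may share reads, and 10 had values identical to those of another gene. Leaving these out moved no count by over 1.5 times.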

Other observations

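The spread over both ends of the ranking was also looked for in single families of other chemosensory receptors. Of 211 Vmn1r genes, 0.474% were in the lowest 10% of all genes in hepatocytes, 25.1% in beta cells and 31.3% in endoderm, and 7.11%, 16.6% and 9.48% were in the highest 10% in that order. Of 35 Tas2r genes, bitter taste receptors, 14.3% were in the lowest 10% in hepatocytes, 28.6% in beta cells and 62.9% in endoderm, and 2.86%, 34.3% and 2.86% were in the highest 10% in that order, so that in endoderm they stood at the low end only. Of 15 Taar genes, trace amine receptors, 6.67% were in the lowest 10% in hepatocytes, 6.67% in beta cells and 33.3% in endoderm, and 0%, 6.67% and 6.67% in the highest. The 126 Vmn2r genes, whose coding region spans several exons, were instead in the middle, with 91.3% between the 25 and 75 percentile in hepatocytes, 76.2% in beta cells and 61.1% in endoderm. Their log2 level had a standard deviation of 0.25 in hepatocytes, 0.53 in beta cells and 0.69 in endoderm. The part of exon structure or gene length in this spread was not tested.

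MOR families with 15 or more members differed among themselves. There were 10 such families, with 258 receptors, of 223 families in all. MOR256, the largest with 50 receptors, had median percentiles of 80.1 in hepatocytes, 83.8 in beta cells and 37.3 in endoderm. MOR171, with 38, stood at 60.3 in hepatocytes, 26.6 in beta cells and 17.9 in endoderm. MOR245, with 22, had 50.5 in hepatocytes, 20.8 in beta cells and 6.98 in endoderm. MOR103, with 17, was high in each, at 80.5 in hepatocytes, 82.7 in beta cells and 78.4 in endoderm, and its median log2 difference in hepatocytes minus endoderm was 0.17. In each column a single ratio recurred at many genes, 0.918 in hepatocytes, 0.932 in beta cells and 1.27 in endoderm, and no receptor had it. Below that value lay 37.5% of receptors in hepatocytes, 39.8% in beta cells and 73.7% in endoderm.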
